A study of Mus musculus with 15 samples.

Results

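The genes of the microRNA pathway were followed across cells that all carried a short hairpin RNA, an artificial substrate of that same pathway. The 10 members were chosen by symbol: DROSHA, DGCR8, XPO5, DICER1, TARBP2, PRKRA, AGO1, AGO2, AGO3 and AGO4, out of 56967 gene names kept from the deposited count tables. All 10 passed the filter on low counts, as did 19051 genes in total. Poly(A)-selected RNA had been sequenced in 15 libraries of MDA-MB-468, an established breast carcinoma line described in the labels as invasive breast carcinoma. Each of the 5 groups held 3 libraries. One group carried a control hairpin (NC), 2 groups carried a hairpin against SHCBP1 (shSHCBP1_1 and shSHCBP1_2), and 2 carried a hairpin against TMEM45A. The last of these are called shTMEM45A set 4 and set 2 after the numbers of their columns. Set 2 has the number of a labelled group, and set 4 was tied to the remaining labelled group by elimination. The labels describe no untreated cells, so every group, the control included, carried a hairpin, and the comparisons are between hairpins. Whether libraries within a group derive from separate cultures, or from a clone, is not stated in the labels.

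MicroRNAs are short RNAs that repress messenger RNAs. A primary transcript folds into a hairpin, which the nuclear Microprocessor, DROSHA with its partner DGCR8, cuts out. XPO5 carries the hairpin to the cytoplasm, DICER1 with TARBP2 or PRKRA removes its loop, and an Argonaute protein keeps a strand as guide. In breast epithelium the pathway is known for microRNAs that hold the epithelial state, and a hairpin RNA introduced into a cell relies on the same proteins.

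The sequences stated by the submitters for the 4 targeting hairpins are shown because they are the substrates that the members handle. Each is 97 bases long and is written 5′ to 3′ in lower case, with bases 2 to 8 of its 3′ arm, the seed that pairs first with a target, in capitals.
sh-SHCBP1-1: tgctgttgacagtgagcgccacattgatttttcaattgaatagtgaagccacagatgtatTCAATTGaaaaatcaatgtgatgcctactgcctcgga
sh-SHCBP1-2: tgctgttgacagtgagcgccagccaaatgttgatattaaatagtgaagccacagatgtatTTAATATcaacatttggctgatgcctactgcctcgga
sh-TMEM45A-1: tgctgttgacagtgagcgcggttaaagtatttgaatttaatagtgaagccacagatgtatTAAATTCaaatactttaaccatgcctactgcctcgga
sh-TMEM45A-2: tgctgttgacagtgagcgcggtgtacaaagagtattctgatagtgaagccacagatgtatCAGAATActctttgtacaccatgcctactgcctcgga
Which of the last 2 sequences the libraries of set 4 and of set 2 carried is not known here, and no sequence of the control hairpin is given in the sources used here.

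The 4 hairpins shared their first 19 and last 17 bases and a loop of 19 bases, and each had arms of 22 bases with 21 paired positions. Their seeds were 4 different sequences, and 0 of 1679 mature mouse microRNAs in RefSeq (GRCm38.p6) had any of them. Of 1005 mouse hairpins in the same table, that of Mir30a, at chr1:23272269-23272339 on the plus strand of GRCm38.p6, shared the longest run with the loop. It is shown because this run of 11 bases, in capitals, ties the loop of the introduced hairpins to that of a natural substrate.
Mir30a: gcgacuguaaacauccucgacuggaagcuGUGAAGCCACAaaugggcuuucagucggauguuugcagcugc
The next longest shared run was 9 bases. The mouse table was used because no human one was at hand.

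Library totals ran from 13780294 to 16484000 counts. A count here is a read assigned to a gene symbol by the authors, and strand was not marked during library preparation, so reads of an overlapping or antisense neighbour cannot be told apart from those of a member. Every member held at least 282 counts in every library and at most 2402. Levels are given as CPM, the count of a gene relative to its library's TMM-scaled total. The control libraries were deposited in the table of the SHCBP1 hairpins and the TMEM45A libraries in a table of their own, so when the TMEM45A libraries are set against NC the hairpin target and the table cannot be told apart. The SHCBP1 transcript averaged 44.1 ± 2.53 CPM in NC (SD, n = 3), 47.1 ± 1.25 in shSHCBP1_1 and 44.3 ± 1.11 in shSHCBP1_2. It was thus not lower in the libraries labelled shSHCBP1, and directions given for them refer to that label. TMEM45A averaged 26.6 ± 2.09 CPM in NC, 17.8 ± 1.86 in set 4 and 19.4 ± 0.761 in set 2. Of 14 markers of a basal breast line, 8 were tested and KRT5, KRT6A, KRT6B and KRT16 had 0 counts in all 15 libraries, although MDA-MB-468 is known as a basal-like line. The summed level of those 14 markers ran from 127 to 131.9 CPM in NC and from 112.2 to 144.4 CPM in the TMEM45A libraries. The summed level of 13 luminal and epithelial markers ran from 156.5 to 158 CPM in NC, from 165.8 to 180.3 CPM in the shSHCBP1 libraries, and from 328.3 to 382 CPM in the TMEM45A libraries. The part of these marker differences in the results below was not tested. In bulk RNA, fewer cells that express a gene and less of its RNA per cell cannot be told apart.

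In the control libraries the 10 members spanned an order of magnitude in level per transcript length. The values that follow are CPM per kilobase of the longest coding transcript of the mouse gene of the same symbol, since no human lengths were at hand, and are means of 3 libraries. PRKRA, a double-stranded RNA binding partner of Dicer, stood highest at 32.7 ± 0.485 (SD). XPO5 followed at 29.3 ± 0.367, DROSHA at 25.9 ± 1.44 and TARBP2 at 22.8 ± 1.8, and the last pair overlapped between libraries. The Argonaute genes stood lower, AGO1 at 14.5 ± 0.163, AGO2 at 8.92 ± 0.0781, AGO4 at 7.99 ± 0.546 and AGO3 lowest at 2.06 ± 0.264. DGCR8 at 8.44 ± 0.655 overlapped with AGO2 above it and with AGO4 below it, and DICER1 stood at 6.87 ± 0.181, apart from AGO4. Within the Argonaute family the order by length thus put AGO1 first, whereas by raw counts AGO2 held 39.4% ± 0.611 of the family's counts in NC and AGO1 33.6% ± 0.629. The AGO proteins are alike in sequence, and how the authors' counting assigned reads common to several of them is not given in the sources used here.

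**Figure D1:**
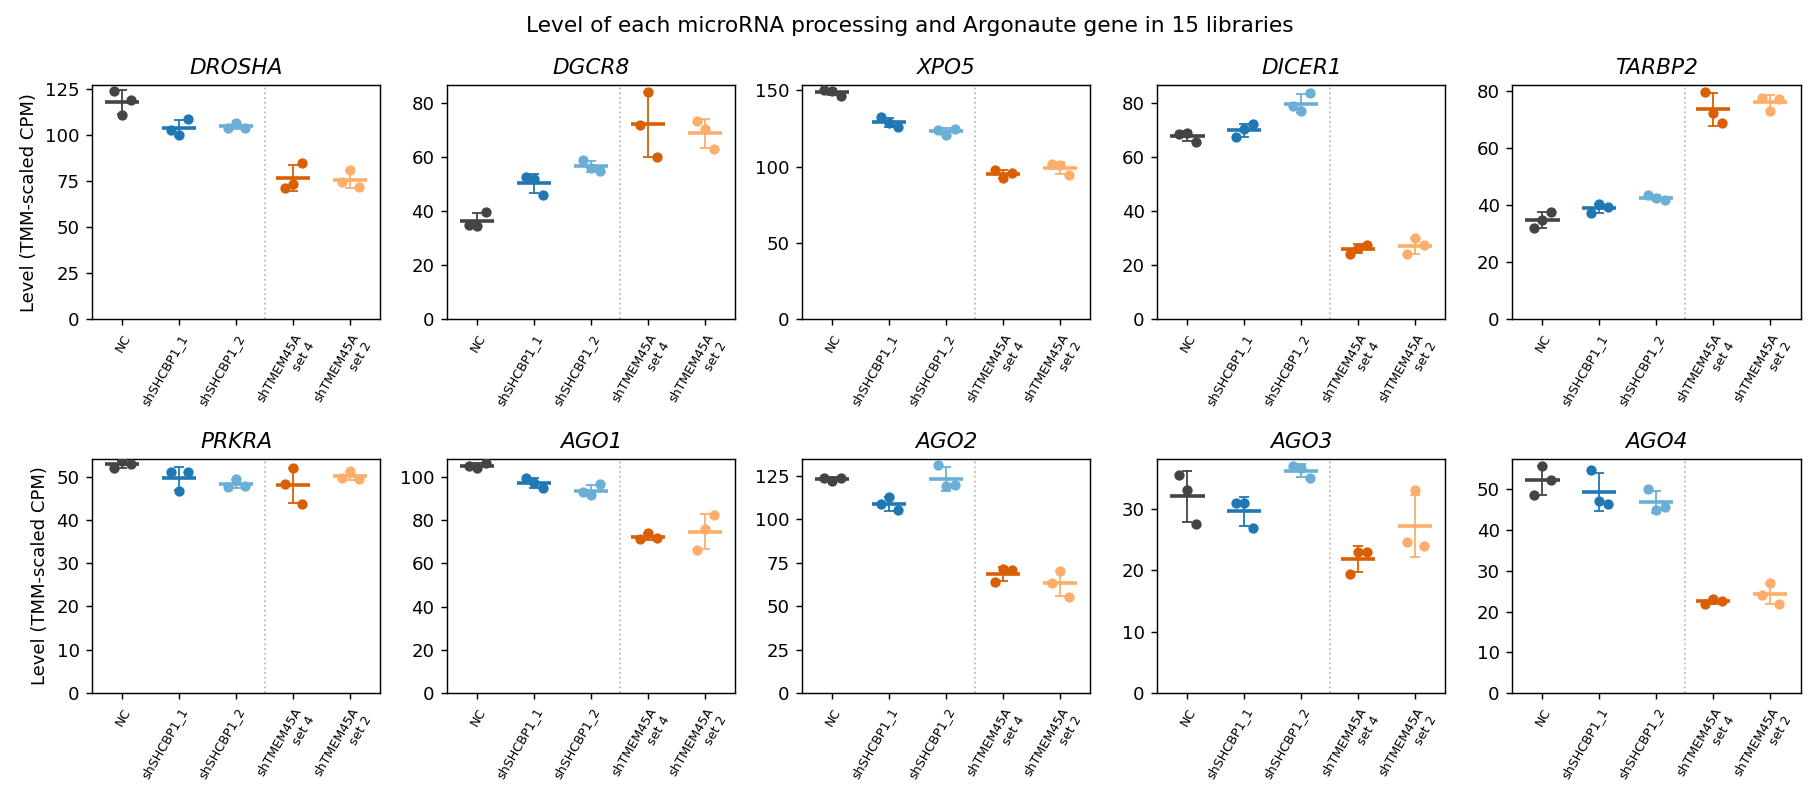
Level of each of the 10 genes (vertical axis, TMM-scaled CPM, from 0) in 15 libraries, 3 in each of 5 groups on the horizontal axis. Points are libraries, horizontal bars are means, error bars are SD, and the dotted line divides the 2 deposited tables. DGCR8 was lowest in NC and TARBP2 was highest in the TMEM45A libraries, DICER1 and AGO4 were lowest there, and PRKRA kept between 43.7 and 53.6 CPM throughout.

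The libraries labelled shSHCBP1 were compared with NC to ask how the pathway stood under hairpins against SHCBP1. In the Microprocessor, DGCR8 rose and DROSHA fell slightly in both sets, and the exporter XPO5 fell in both. In shSHCBP1_1, 3 members passed the test (edgeR quasi-likelihood test, adjusted p under 0.05), 1 higher and 2 lower, while 19.9% of all genes tested passed, 9.34% higher and 10.5% lower. In shSHCBP1_2, 6 members passed, 3 in each direction, against 31.1% of all genes, 15.6% higher and 15.4% lower. The median change of the members was -0.10 and -0.07 on the log2 scale, beside 0.01 and 0.01 over all genes tested. In the same direction in both sets, 1 member rose and 2 fell, beside 8.3% and 9.45% of all genes, and both comparisons share the NC libraries.

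DGCR8, the RNA-binding subunit that recognises the primary hairpin, stood at 35, 34.6 and 39.7 CPM in the NC libraries. It stood at 52.6, 52 and 46.2 CPM in shSHCBP1_1 and at 59, 56.1 and 54.8 CPM in shSHCBP1_2. Every library of either set was above every NC library. The log2 change was 0.46 (SE 0.0925, edgeR adjusted p = 0.000486) in shSHCBP1_1 and 0.63 (SE 0.0921, adjusted p = 3.31e-06) in shSHCBP1_2, folds of 1.38 and 1.55. It passed the threshold under all 15 settings tried in each set.

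DROSHA, the nuclease of the complex, stood at 124, 111 and 119 CPM in NC, at 103, 100.1 and 109 CPM in shSHCBP1_1 and at 104, 107 and 104 CPM in shSHCBP1_2. No library of either set reached the NC range, but the gap was small. It fell by 0.18 on the log2 scale (SE 0.0628, edgeR adjusted p = 0.0363) in shSHCBP1_1 and by 0.17 (SE 0.0629, adjusted p = 0.0387) in shSHCBP1_2. The call held under 9 of 15 settings in the first set and 8 of 15 in the second, and ended in each set without NC replicate 1 (adjusted p = 0.183 in each) or NC replicate 3 (0.118 and 0.116). It also ended in the first set without its replicate 1 or 2 (adjusted p = 0.107 and 0.157, edgeR) and in the second without any of its replicates (0.0772 to 0.109). With scaling by total counts the DROSHA change was -0.04 in the first set (edgeR adjusted p = 0.688) and -0.0048 in the second (adjusted p = 0.966). Upper-quartile scaling ended the first call (adjusted p = 0.0773, edgeR) and testing all genes with at least 1 count ended the second (0.0529).

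XPO5, which exports hairpin precursors with Ran, stood at 150, 149.9 and 147 CPM in NC, at 132, 128 and 126 CPM in shSHCBP1_1 and at 124, 121 and 125 CPM in shSHCBP1_2. The 3 NC libraries lay within a few CPM of each other and above all 6 others. XPO5 fell by 0.21 on the log2 scale in the first set (SE 0.0501, edgeR adjusted p = 0.00353) and by 0.27 in the second (SE 0.0503, adjusted p = 9.42e-05). It passed under 14 of 15 settings in each set and was -0.06 and -0.11 with scaling by total counts (adjusted p = 0.409 and 0.104), a scaling that raised the median change over all genes to 0.15 and 0.17.

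Around Dicer, DICER1 stood at 68.5, 68.9 and 65.7 CPM in NC, at 67.3, 70.2 and 72.1 CPM in shSHCBP1_1 and at 78.6, 76.8 and 83.6 CPM in shSHCBP1_2. The first set overlapped with NC and the second lay above it. The log2 change was 0.04 (SE 0.0693, edgeR adjusted p = 0.716) in shSHCBP1_1, while DICER1 rose by 0.23 (SE 0.069, adjusted p = 0.00944) in shSHCBP1_2, a call lost under RLE scaling (0.16, adjusted p = 0.0826), with DESeq2 (adjusted p = 0.0777) and without shSHCBP1_2 replicate 3 (0.20, adjusted p = 0.0657). TARBP2, the partner that also stabilises Dicer, stood at 32, 34.9 and 37.5 CPM in NC, at 37.2, 40.3 and 39.2 CPM in shSHCBP1_1 and at 43.5, 42.6 and 41.7 CPM in shSHCBP1_2. TARBP2 overlapped with NC in the first set (0.16, SE 0.0746, adjusted p = 0.141) and rose in the second (0.29, SE 0.0744, adjusted p = 0.00296). PRKRA, the other partner, ran from 52.1 to 53.6 CPM in NC, from 46.6 to 51.1 CPM in shSHCBP1_1 and from 47.7 to 49.3 CPM in shSHCBP1_2. Its libraries were all below those of NC, yet the changes of -0.09 (95% interval -0.23 to 0.05) and -0.13 (-0.27 to 0.01) did not pass (edgeR adjusted p = 0.393 and 0.156).

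With TMM scaling over all groups, no Argonaute gene passed in shSHCBP1_1, and AGO1 alone passed in shSHCBP1_2, but these calls depended on the setting. AGO1, which binds microRNAs like its relatives, ran from 103.9 to 106.3 CPM in NC, from 94.8 to 99.5 CPM in shSHCBP1_1 and from 91.5 to 96.4 CPM in shSHCBP1_2. AGO1 changed by -0.11 on the log2 scale with an SE of 0.0615 (edgeR adjusted p = 0.21, but 0.0371 under RLE scaling and 0.0239 with DESeq2), then by -0.17 with an SE of 0.0617 (adjusted p = 0.0381), and the second passed under 7 of 15 settings. Leaving out any of the NC or shSHCBP1_2 libraries ended that call (edgeR adjusted p from 0.055 to 0.136), as did scaling by total counts (adjusted p = 0.982) and testing all genes with at least 1 count (0.0679). AGO2, the member of the family with slicer activity, stood at 124, 122 and 124 CPM in NC, at 108, 113 and 105 CPM in shSHCBP1_1 and at 131, 119 and 119.7 CPM in shSHCBP1_2. AGO2 was below NC in every library of the first set, at -0.18 (SE 0.0651, adjusted p = 0.0501), and spanned NC in the second, at 0.00 (SE 0.0649, adjusted p = 0.999). In the first set AGO2 passed under RLE scaling (-0.24, edgeR adjusted p = 0.00621), with DESeq2 (adjusted p = 0.00252), with only the groups compared (0.00344) and with the replicate block (0.0398). It was -0.16 under upper-quartile scaling (edgeR adjusted p = 0.0974), -0.04 with total counts (0.738) and -0.08 with a trend over transcript length removed (0.341). AGO3 and AGO4 overlapped with NC in both sets, with log2 changes from -0.16 for AGO4 to 0.18 for AGO3, and edgeR adjusted p-values from 0.149 to 0.544. In shSHCBP1_2 AGO4 passed lower under RLE scaling (-0.23, edgeR adjusted p = 0.0253), with DESeq2 (adjusted p = 0.0284) and with the length trend removed (0.049). AGO3 passed higher there with total counts (0.34, edgeR adjusted p = 0.0121) and with only the groups compared (0.19, adjusted p = 0.0445), and AGO2 did with total counts (0.17, adjusted p = 0.0495).

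**Figure D2:**
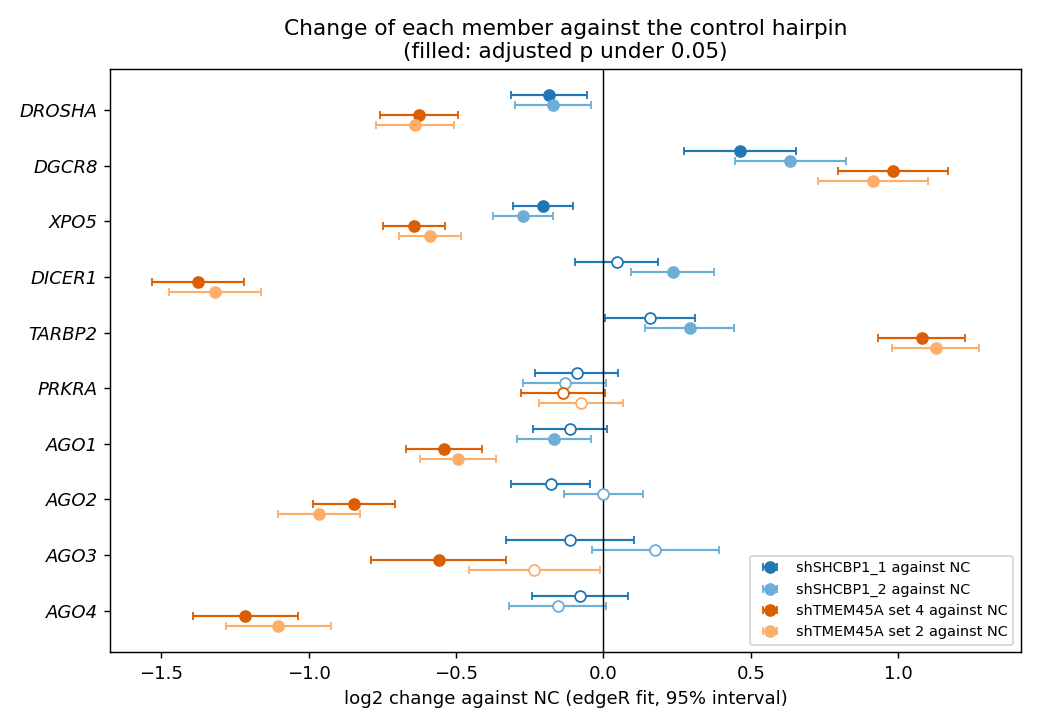
Log2 change of each of the 10 genes against NC (horizontal axis) for the 4 hairpin sets, from the edgeR fit of all 15 libraries, with 95% intervals. Filled points passed an adjusted p of 0.05. DGCR8 lay to the right of 0 in all 4 sets, from 0.46 to 0.98, and DICER1 reached -1.38 in set 4.

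The TMEM45A libraries were compared with NC to ask the same of hairpins against TMEM45A. DICER1, AGO4 and AGO2 fell most and TARBP2 and DGCR8 rose, each about as far in set 4 as in set 2. In set 4, 9 members passed (edgeR, adjusted p under 0.05), 2 higher and 7 lower, against 74.4% of all genes, 35.6% higher and 38.9% lower. In set 2, 8 members passed, 2 higher and 6 lower, against 75.9% of all genes, 36.1% higher and 39.8% lower. A call is thus the usual state of a gene in these comparisons, and the sizes carry more than the count. The median change of the members was -0.59 and -0.54 on the log2 scale, beside -0.03 and -0.04 over all genes. All genes are not a like background in length. Of the 10 members, 5 belonged to the longest of 5 bins of genes by mouse transcript length, described below. Median changes of that bin were -0.64 and -0.67. The shortest bin, with medians of 0.83 and 0.84, held 2 members. In both sets alike, 2 members rose and 6 fell, beside 32.6% and 36.2% of all genes.

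DICER1 stood at 68.5, 68.9 and 65.7 CPM in the NC libraries, at 24.2, 26.5 and 27.6 CPM in set 4 and at 24.1, 30 and 27.4 CPM in set 2. The highest TMEM45A library was under every NC library by a wide margin. DICER1 fell by 1.38 on the log2 scale (SE 0.0766, edgeR adjusted p = 2.9e-16) in set 4 and by 1.32 (SE 0.0761, adjusted p = 6.36e-16) in set 2, to 0.385 and 0.401 of its NC level.

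TARBP2 stood at 32, 34.9 and 37.5 CPM in NC, at 79.7, 72.2 and 68.6 CPM in set 4 and at 77.7, 73.1 and 77.2 CPM in set 2. All 6 TMEM45A libraries were above all 3 of NC. TARBP2 rose by 1.08 (SE 0.0725, edgeR adjusted p = 2.76e-14) in set 4 and by 1.13 (SE 0.0723, adjusted p = 8.41e-15) in set 2 on the log2 scale, 2.11-fold and 2.18-fold. PRKRA, at 52, 53.6 and 52.9 CPM in NC, 48.4, 51.9 and 43.7 CPM in set 4 and 49.6, 51.2 and 49.5 CPM in set 2, was a little lower in every TMEM45A library. Its changes of -0.14 (95% interval -0.28 to 0.00) and -0.08 (-0.22 to 0.06) did not pass (edgeR adjusted p = 0.0734 and 0.316), and PRKRA was thus the member that passed in none of the 4 comparisons with NC. Other settings called it lower. In set 4 it passed under RLE scaling (-0.16, edgeR adjusted p = 0.0354), with DESeq2 (adjusted p = 0.0349) and without the second column (-0.20, adjusted p = 0.0218). It passed in shSHCBP1_2 under RLE scaling (-0.21, adjusted p = 0.0195, edgeR) and with DESeq2 (adjusted p = 0.0151), and in both TMEM45A sets with total counts (-0.33 and -0.27) and with a trend over transcript length removed (-0.66 and -0.60).

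DGCR8 stood at 35, 34.6 and 39.7 CPM in NC, at 72, 84.2 and 60.1 CPM in set 4 and at 73.2, 70.3 and 62.9 CPM in set 2. The libraries of set 4 were the most scattered, but none reached down to NC. DGCR8 rose by 0.98 (SE 0.0916, edgeR adjusted p = 5.4e-11) in set 4 and by 0.92 in set 2 (SE 0.0918, adjusted p = 2.47e-10) on the log2 scale. Over all settings tried, its change stayed between 0.79 and 1.31 in set 4 and between 0.73 and 1.27 in set 2, past the threshold each time. DGCR8 was called higher, and DROSHA and XPO5 lower, in all 4 comparisons with NC, which share the NC libraries. The DROSHA calls held under only 9 of 15 settings in shSHCBP1_1 and 8 of 15 in shSHCBP1_2. Of all genes, 19.9%, 31.1%, 74.4% and 75.9% were called in shSHCBP1_1, shSHCBP1_2, set 4 and set 2. The share of all genes called in all 4 is not given here.

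DROSHA ran from 111.1 to 124 CPM in NC, from 71.7 to 84.8 CPM in set 4 and from 72.1 to 81 CPM in set 2. XPO5 ran from 146.7 to 150 CPM in NC, from 92.8 to 97.8 CPM in set 4 and from 94.4 to 101.6 CPM in set 2. Neither gene's TMEM45A libraries overlapped with NC. DROSHA fell by 0.62 (SE 0.0646, edgeR adjusted p = 5.21e-10) in set 4 and by 0.64 (SE 0.0646, adjusted p = 3.07e-10) in set 2 on the log2 scale, and XPO5 fell by 0.64 (SE 0.0514, adjusted p = 1.82e-12) and 0.59 (SE 0.0512, adjusted p = 1.13e-11).

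All 4 Argonaute genes were called lower in set 4 and 3 of them in set 2, beside 38.9% and 39.8% of all genes. All 4 belonged to the longest bin by mouse transcript length, of which 69% and 69.4% was called lower. With a trend over transcript length removed, AGO1, AGO2 and AGO3 changed sign, as described below. AGO4 stood at 48.6, 55.7 and 52.4 CPM in NC, at 21.8, 23.1 and 22.6 CPM in set 4 and at 24.1, 26.9 and 21.9 CPM in set 2, and fell by 1.22 (SE 0.0876) and 1.10 (SE 0.0866) on the log2 scale. AGO2 stood at 124, 122 and 124 CPM in NC, at 63.9, 71.2 and 70.5 CPM in set 4 and at 63.5, 70.1 and 55.4 CPM in set 2, and fell by 0.85 (SE 0.0677) and 0.97 (SE 0.0681). Both were clear of NC in every library, with edgeR adjusted p-values from 8.04e-14 to 1.77e-12. AGO1 ran from 71 to 74.2 CPM in set 4 and from 66 to 82.2 CPM in set 2, below the NC range of 103.9 to 106.3 CPM, and fell by 0.54 and 0.49 (SE 0.0632 and 0.063, edgeR adjusted p = 6.61e-09 and 3.46e-08). AGO3, the least abundant of the family, stood at 35.5, 33.1 and 27.5 CPM in NC, at 19.4, 22.9 and 23.1 CPM in set 4 and at 24.6, 33 and 24 CPM in set 2. AGO3 was below NC throughout set 4 and fell by 0.56 there (SE 0.112, adjusted p = 5.15e-05), whereas set 2 overlapped with NC through its second library. In set 2 the AGO3 change was -0.23 (SE 0.109, edgeR adjusted p = 0.0521), and it lay between -0.40 (adjusted p = 0.000802, without that library) and -0.16 (adjusted p = 0.224, without set 2 replicate 3) with 1 library left out. It also passed without NC replicate 3 (-0.34, edgeR adjusted p = 0.0104), and not without NC replicate 1 (-0.16, adjusted p = 0.228), NC replicate 2 (-0.22, 0.115) or set 2 replicate 1 (-0.17, 0.182). The family's summed level was 312 ± 2.35 CPM in NC (SD, n = 3), 285 ± 10.6 CPM in shSHCBP1_1 and 300 ± 9.84 CPM in shSHCBP1_2, and 185 ± 8.08 CPM in set 4 and 189 ± 14.6 CPM in set 2.

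Hairpins against the same target gave member levels that the test did not tell apart in the fit of all groups. Between the shSHCBP1 sets, 0 members passed, as did 0.835% of all genes, 0.499% higher and 0.336% lower in the second. By edgeR at an unadjusted p under 0.05 there were 3, DICER1, AGO2 and AGO3, all higher in the second set. Their log2 differences were 0.19 (95% interval 0.05 to 0.33), 0.18 (0.05 to 0.31) and 0.29 (0.08 to 0.51), with edgeR adjusted p-values of 0.233, 0.236 and 0.236. Fitted with these 2 groups alone, 4 members passed, all higher in the second set, beside 9.53% of all genes, 5.09% higher and 4.44% lower. DESeq2 called 0 in the fit of all groups. Between set 2 and set 4, 0 members passed, against 5.27% of all genes, 1.95% higher and 3.32% lower in set 2. By edgeR at an unadjusted p under 0.05 there was 1, AGO3, at 0.32 (95% interval 0.09 to 0.56, adjusted p = 0.0937), higher in set 2, and DESeq2 called 0. The other members lay between -0.12 for AGO2 and 0.11 for AGO4. A larger difference than 0.56 on the log2 scale lay outside the interval of every member in either comparison.

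Ratios of counts within a library, which no scaling between libraries changes, showed the same shifts. DROSHA had 3.25 ± 0.269 counts per DGCR8 count in NC (SD, n = 3), 2.08 ± 0.241 in shSHCBP1_1 and 1.86 ± 0.0765 in shSHCBP1_2. The ratio was 1.09 ± 0.282 in set 4 and 1.11 ± 0.0742 in set 2. The lowest NC library, at 3.01, was above the highest of any other group, at 2.36. DICER1 had 1.96 ± 0.195 counts per TARBP2 count in NC, 1.8 ± 0.0502 in shSHCBP1_1 and 1.87 ± 0.114 in shSHCBP1_2, groups that overlapped. It had 0.357 ± 0.0496 in set 4 and 0.358 ± 0.0505 in set 2, with no library above 0.41. PRKRA had 1.52 ± 0.108 counts per TARBP2 count in NC, 1.28 ± 0.111 and 1.13 ± 0.0326 in the shSHCBP1 sets, and 0.654 ± 0.0575 and 0.66 ± 0.035 in set 4 and set 2. PRKRA thus outnumbered TARBP2 in every library outside the TMEM45A sets and in none within them. XPO5 per DROSHA, genes of successive steps, stayed between 1.17 ± 0.0365 and 1.31 ± 0.0557 in all 5 groups. Among the Argonaute counts, the AGO4 share was 16.7% ± 1.1 in NC and 12.2% ± 0.17 and 12.8% ± 0.827 in set 4 and set 2, while the AGO1 share was 33.6% ± 0.629 in NC and 39.1% ± 1.15 and 39.5% ± 4.57 there. No test was run on these ratios and shares. Between genes of unlike length, such as DICER1 and TARBP2, they keep any effect of transcript length, which is described next.

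**Figure D3:**
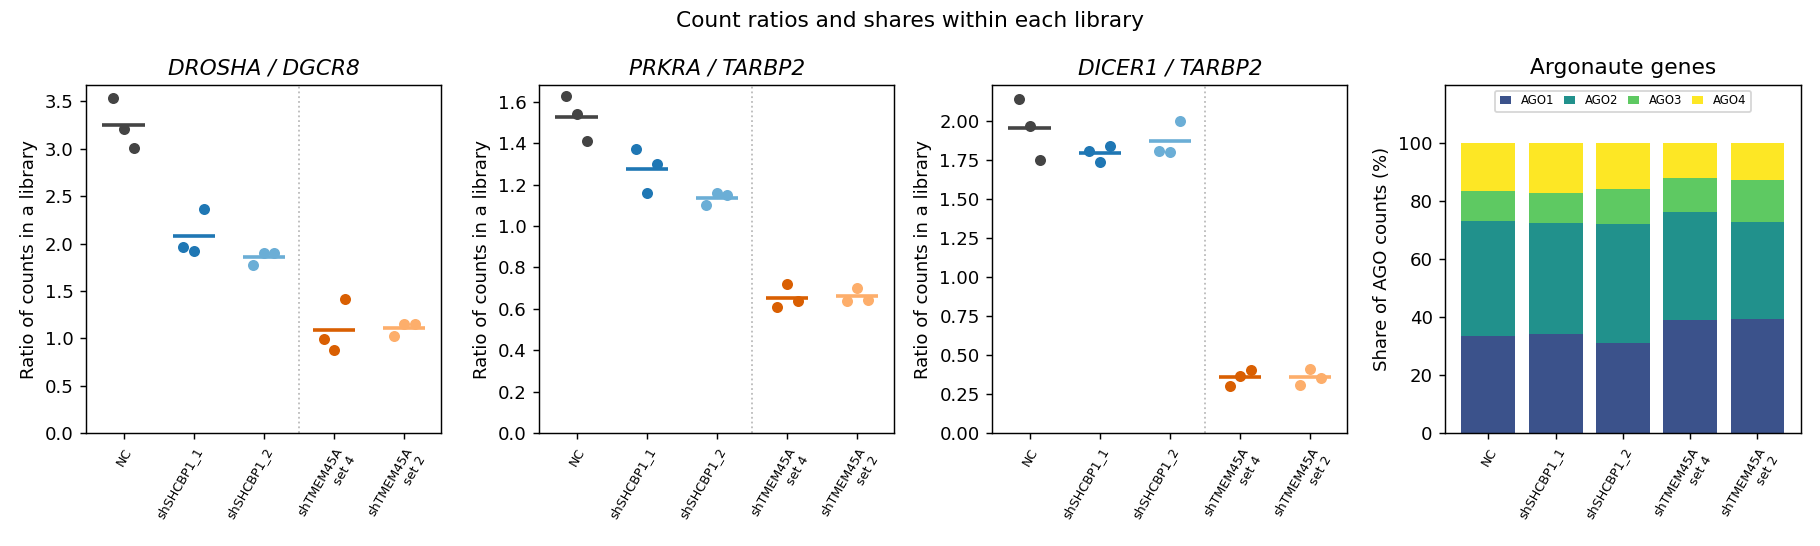
Ratios of counts within each library for DROSHA to DGCR8, PRKRA to TARBP2 and DICER1 to TARBP2 (vertical axes, no unit), with points for libraries and bars for means of 3, and the mean share of each Argonaute gene in the Argonaute counts (percent) by group. DROSHA to DGCR8 averaged 3.25 in NC and 1.09 in set 4, and the share of AGO4 was 16.7% in NC and 12.2% in set 4.

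Transcript length moved with the changes in the TMEM45A libraries, and the members differ much in length. Mouse transcript lengths, matched by symbol, were found for all 10 members and for 12716 of the tested genes (66.7%), too few for the check to stand for all genes tested. Among the genes with a length, divided by length into 5 bins of equal size, the shortest bin (median 1330.5 nt) was at 0.83 in set 4 and 0.84 in set 2 by its median log2 change, and 70.8% and 70.6% of it was called higher. The longest bin (median 6807 nt) had medians of -0.64 and -0.67, and 69% and 69.4% of it was called lower. In the shSHCBP1 sets the medians of the bins lay between -0.04 and 0.06. TARBP2 and PRKRA belonged to the shortest bin, DGCR8, DROSHA and XPO5 to the one before the longest, and DICER1 and the 4 Argonaute genes to the longest. DGCR8 thus rose from a bin whose median was -0.34 in both sets, and PRKRA stood at -0.14 and -0.08 in a bin whose medians were 0.83 and 0.84.

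With a smooth length trend removed from each library, an alternative chosen after the data were seen, DGCR8 was 1.31 in set 4 and 1.27 in set 2 on the log2 scale, and TARBP2 was 0.50 and 0.54. DICER1 was -0.54 and -0.44 and AGO4 was -0.61 and -0.46, DROSHA was -0.26 and -0.24, and all of these still passed (edgeR, adjusted p under 0.05). XPO5 was -0.20 in set 4 and -0.11 in set 2, and the latter missed the threshold (adjusted p = 0.0548). PRKRA, not called in the main fit, was -0.66 (edgeR adjusted p = 4.5e-10) and -0.60 (adjusted p = 3.16e-09). AGO1, AGO2 and AGO3 changed sign, to 0.12, 0.19 and 0.55 in set 4 and to 0.21, 0.11 and 0.91 in set 2. The direction of these 3 genes therefore depends on whether length is taken into account.

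**Figure D4:**
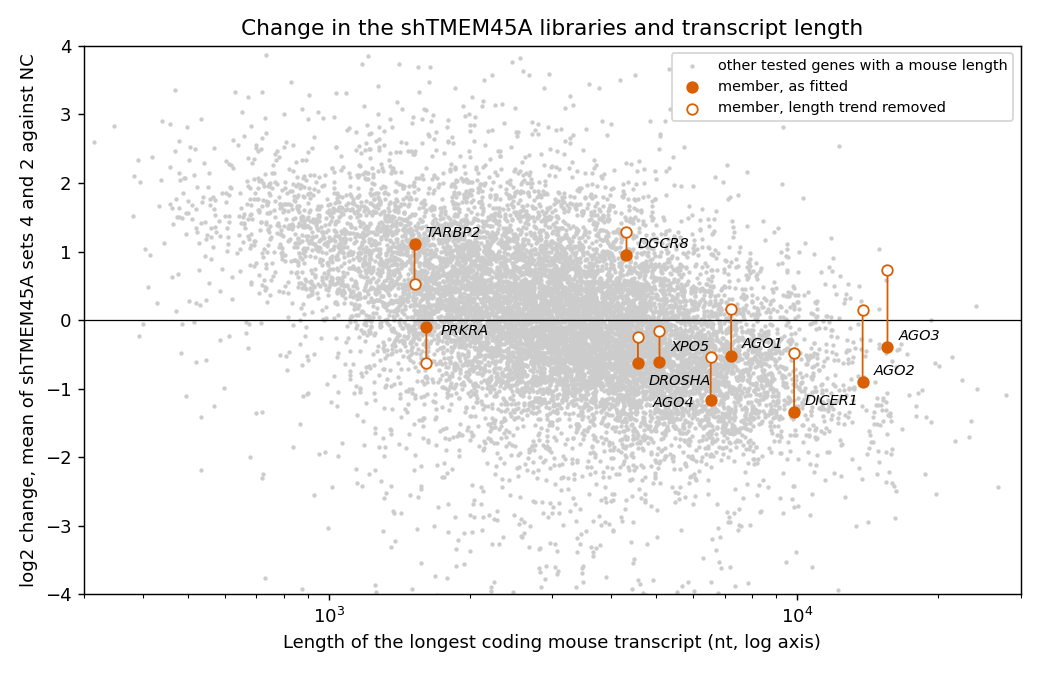
Log2 change against NC (vertical axis, mean of set 4 and set 2) against length of the longest coding mouse transcript (horizontal log axis, nt) for the 10 genes and for other tested genes with a mouse length. Genes beyond the axes are not drawn. Filled points are the changes as fitted and open points those with the length trend removed: DGCR8 stays above 0, DICER1 and AGO4 below it, and AGO1, AGO2 and AGO3 cross it.

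The proteins that Argonaute recruits to a target were described next, from lists of genes around the members. Of 16 genes of the GW182 proteins and deadenylase complexes, 2 rose and 3 fell in shSHCBP1_1, 2 rose and 5 fell in shSHCBP1_2, and 3 rose and 11 fell in each TMEM45A set (edgeR, adjusted p under 0.05). Their median log2 changes were -0.02, -0.01, -0.78 and -0.78 in that order, beside 0.01, 0.01, -0.03 and -0.04 over all genes tested. For this and each following list, the shares of all genes called were 9.34% higher and 10.5% lower in shSHCBP1_1, 15.6% and 15.4% in shSHCBP1_2, 35.6% and 38.9% in set 4, and 36.1% and 39.8% in set 2. Of the 16, 7 belonged to the longest bin, of which 69% and 69.4% was called lower in set 4 and set 2, and 0 to the shortest. With the length trend removed, 4 were called higher and 9 lower in each TMEM45A set, beside 36.2% and 36% of the genes with a length in set 4 and 37.9% and 36.5% in set 2. TNRC6A, a GW182 protein that links Argonaute to the deadenylases, averaged 66 ± 0.726 CPM in NC (SD, n = 3), 29.7 ± 0.631 in set 4 and 29.3 ± 3.17 in set 2, and fell by 1.15 and 1.17 on the log2 scale. TNRC6B fell by 0.93 and 1.27, whereas TNRC6C rose by 0.34 and 0.57. CNOT1, the scaffold of the main deadenylase complex, averaged 395 ± 4.94 CPM in NC, 295 ± 9.47 and 287 ± 3.73 in the shSHCBP1 sets, and 59.2 ± 1.89 and 56.1 ± 1.44 in set 4 and set 2. CNOT1 fell in all 4 sets, by 0.42, 0.46, 2.74 and 2.82, as did the poly(A)-binding protein gene PABPC1, by 0.42, 0.55, 1.17 and 1.22. CNOT10, another subunit, rose in all 4, by 0.33, 0.57, 0.84 and 0.96.

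Of 12 decapping and decay genes, 2 rose and 2 fell, 5 rose and 4 fell, 5 rose and 7 fell, and 4 rose and 7 fell in shSHCBP1_1, shSHCBP1_2, set 4 and set 2. Over all genes 19.9%, 31.1%, 74.4% and 75.9% were called in these comparisons. With the length trend removed the TMEM45A counts were 6 higher and 5 lower in each set, and 5 of the 12 genes belonged to the longest bin. EDC4, a scaffold of the decapping complex, averaged 104 ± 2.83 CPM in NC, 11.5 ± 1.48 in set 4 and 10.1 ± 2.58 in set 2, and fell by 3.18 and 3.36 on the log2 scale (edgeR adjusted p = 1.33e-22 and 4.01e-23). DCP1B, an activator of decapping, rose in all 4 sets, by 0.73, 0.67, 1.05 and 1.06.

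Upstream of export, 17 cofactors of the Microprocessor gave 1 higher and 5 lower, 4 and 6, 7 and 8, and 7 and 8, in the same order of sets. DDX17, a helicase of the complex, fell in all 4 sets, by 0.33, 0.44, 1.56 and 1.51 on the log2 scale, and HNRNPA1, which binds some primary hairpins, fell by 0.38, 0.57, 0.24 and 0.50. SRSF3, a splicing factor that marks primary hairpins, rose by 0.86 and 0.98 in set 4 and set 2, and METTL3, which methylates primary transcripts, fell by 1.56 and 1.82 there. Of 10 genes of the Ran cycle and its receptors, 1 rose and 2 fell, 2 rose and 5 fell, and 5 rose and 5 fell in each TMEM45A set. XPO7, an exportin related to XPO5, fell in all 4 sets, by 0.30, 0.40, 1.15 and 1.34, and RANBP1, a Ran-binding protein, rose by 1.15 and 1.21 in set 4 and set 2.

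Of 16 genes for tailing and turnover of precursors, 15 were tested, of which 6 belonged to the longest bin and 1 to the shortest. Of the 15, 1 rose and 2 fell, 3 rose and 2 fell, 4 rose and 10 fell, and 3 rose and 10 fell. TUT4, which adds uridines to precursors, averaged 74.9 ± 3.71 CPM in NC, 24.6 ± 2.17 in set 4 and 26 ± 4.98 in set 2, and fell by 1.60 and 1.53 on the log2 scale. LIN28B, which blocks processing of let-7 precursors, averaged 36.5 ± 2.13 CPM in NC, 38.8 ± 2.76 and 43.9 ± 0.628 in the shSHCBP1 sets, and 23.4 ± 2.3 and 24.2 ± 3.02 in set 4 and set 2. LIN28B rose by 0.27 in shSHCBP1_2 and fell by 0.64 and 0.59 in the TMEM45A sets, while its relative LIN28A, not tested, held at most 2 counts in any group. BCDIN3D, an RNA methyltransferase reported to act on precursors, rose in all 4 sets, by 1.02, 1.21, 2.51 and 2.55, from 1.39 ± 0.269 CPM in NC. ZSWIM8, a ubiquitin ligase component that acts in target-directed microRNA decay, also fell in all 4, from an average of 71.6 ± 4.7 CPM in NC to 60 ± 1.17, 61.2 ± 4.67, 20.7 ± 2.26 and 17.9 ± 2.15 CPM.

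Of 12 chaperone genes that load Argonaute, 3 rose and 3 fell, 5 rose and 4 fell, 6 rose and 5 fell, and 7 rose and 5 fell. STIP1, a co-chaperone that bridges HSP70 and HSP90, rose in all 4 sets, by 0.25, 0.28, 0.79 and 0.81 on the log2 scale, and HSP90AB1 fell by 0.12, 0.16, 0.66 and 0.93. Of 18 Argonaute partners, 0 rose and 5 fell in shSHCBP1_1 and 0 rose and 7 fell in shSHCBP1_2. With scaling by total counts, 2 and 6 were called higher there, beside 21.4% and 29.2% of all genes. In set 4 and set 2, 2 rose and 12 fell and 3 rose and 13 fell, beside 35.6% and 36.1% of all genes called higher and 38.9% and 39.8% lower. Of these partners 5 belonged to the longest bin and 0 to the shortest, and with the length trend removed 4 were called higher and 11 lower in set 4, and 7 and 11 in set 2. IGF2BP3, an RNA-binding protein that shares targets with Argonaute, averaged 24.1 ± 2.8 CPM in NC, 0.982 ± 0.472 in set 4 and 1.49 ± 0.48 in set 2, and fell by 4.62 and 4.01 (edgeR adjusted p = 5.34e-19 and 2.1e-18). SND1, a nuclease found with the silencing complex, fell in all 4 sets, by 0.41, 0.49, 0.55 and 0.67. Another list held 10 other double-stranded RNA binding genes, of which 4 belonged to the longest bin and 0 to the shortest. Of these 10, 1 rose and 2 fell, 3 rose and 2 fell, and 3 rose and 7 fell in each TMEM45A set. EIF2AK2, the kinase that PRKRA activates and TARBP2 restrains, fell by 0.62 and 0.44 in set 4 and set 2, and ADAR, which edits double-stranded RNA, fell in all 4 sets, by 0.18, 0.26, 1.24 and 1.21. With scaling by total counts, 21.4% of all genes were called higher in shSHCBP1_1 and 3.46% lower. The tailing genes then gave 5 higher and 0 lower there. The chaperone genes gave 7 higher and 0 lower, and the decapping genes 4 higher and 0 lower. Of 8 genes of the PIWI clade and its pathway, 4 were tested, and PIWIL1 held at most 3 counts in any group.

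The host transcripts of microRNAs were read last. Poly(A)-selected RNA does not measure mature microRNAs. Counts per gene do not show whether the counted RNA still held its hairpin, so they do not measure the substrates of the members. Of 22 listed, 20 were in the tables and 13 were tested, and a transcript near the filter could pass through the group where it was high. In shSHCBP1_1, 3 of the 13 rose and 0 fell, and in shSHCBP1_2, 4 rose and 0 fell, though 1 was called lower there with RLE scaling. In each TMEM45A set 9 rose and 1 fell, beside 35.6% and 36.1% of all genes called higher and 38.9% and 39.8% lower. With a count minimum of 50 in the filter, 6 rose and 1 fell in each. Of all genes under that filter, 40.7% were called higher and 41.1% lower in set 4, and 40.8% and 41.8% in set 2. MIR181A2HG shows how a low transcript enters, with 13 counts in all over the NC libraries (mean 0.301 CPM) against 62 in set 4 and 74 in set 2 (1.5 and 1.77 CPM), so the counts over the 13 describe those that passed the filter. These non-coding transcripts had no mouse length and were not part of the length check.

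MIR17HG, host of the miR-17-92 cluster, averaged 9.6 ± 0.965 CPM in NC (SD, n = 3), 8.6 ± 0.706 and 8.53 ± 0.389 in the shSHCBP1 sets, and 45 ± 4.12 and 42 ± 3.4 in set 4 and set 2. It rose by 2.23 (SE 0.107, edgeR adjusted p = 6.98e-18) in set 4 and by 2.13 (SE 0.107, adjusted p = 1.95e-17) in set 2 on the log2 scale, and was -0.16 and -0.17 in the others (adjusted p = 0.415 and 0.322). MIR210HG, whose microRNA is known from hypoxia, rose by 2.02 and 2.14 in set 4 and set 2 and by 0.53 in shSHCBP1_1. MIR600HG was the transcript that fell. It averaged 22.4 ± 1.19 CPM in NC against 8.16 ± 0.804 (set 4) and 8.06 ± 0.762 (set 2). MIR99AHG and MIR193BHG rose in all 4 sets but from about 1 CPM in NC, at 1.06 ± 0.171 and 0.974 ± 0.248.

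**Figure D5:**
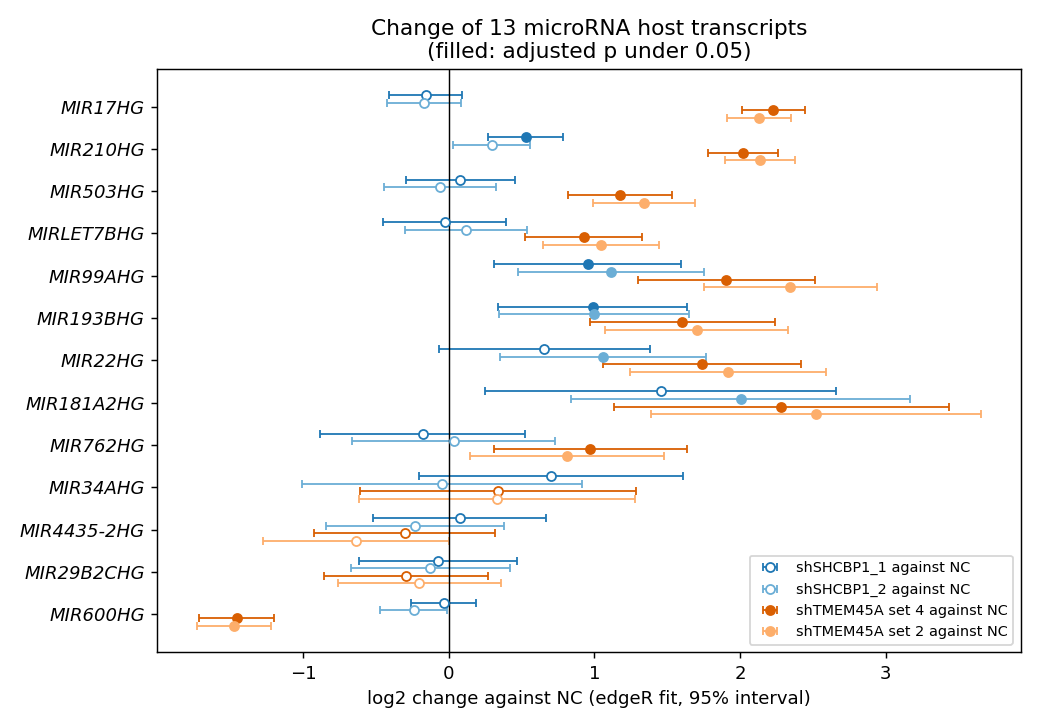
Log2 change against NC (horizontal axis) of the 13 tested microRNA host transcripts for the 4 hairpin sets, from the edgeR fit, with 95% intervals. Filled points passed an adjusted p of 0.05. MIR17HG stood at 2.23 and 2.13 in the TMEM45A sets and did not pass in the shSHCBP1 sets, and MIR600HG was lower in the TMEM45A sets.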

How the data were processed

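RNA of 15 libraries in 5 groups of 3 was analysed. The authors deposited 2 tables of raw counts, whole numbers per gene symbol without normalization, each with 58735 rows. Per the labels' protocols, poly(A) RNA was selected and copied with a NEBNext Ultra kit. The build in the submitters' processing notes is mm10 and the labelled organism is the mouse, whereas the symbols are human. The sources used here give neither aligner nor counter, and no coordinates of members are printed. Names on more than 1 row or turned into dates (200 names, 1768 rows) were left out. Columns of other samples numbered 0.

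Low genes were removed with filterByExpr (minimum count 10, minimum total 15). Counts were scaled by TMM and fitted in all 15 libraries with edgeR 4.0.16 (R 4.3.3). The quasi-likelihood F test was adjusted by Benjamini-Hochberg over 19051 genes, with a threshold of 0.05. The standard error (SE) is the log2 change over the square root of F, and limits of intervals are at 95%. P-values reflect spread among libraries of a group, estimated for each gene over all 5 groups at once, and this spread may be technical. It was unequal between groups. Chi-square per degree of freedom between 2 libraries of a group was 1.74 to 2.99 in NC and the shSHCBP1 sets, and 3.63 to 9.19 in the TMEM45A sets. Fitted with only the groups compared, 32.6% and 46.2% of genes were called in shSHCBP1_1 and shSHCBP1_2, and 0.772% between set 2 and set 4. Alternatives were RLE, total-count and upper-quartile scaling, other filters, DESeq2 1.42.0, only the groups compared, a replicate block, each library left out, and a length trend. The pipeline was tested on simulated counts with changes in a small share of genes of shSHCBP1_1 alone. Changes as widespread as those in the TMEM45A libraries were not simulated.

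The members and the 10 further lists (141 genes, 127 tested) were chosen with earlier results of these data known. Named beside the members and targets were up to 2 rises and 2 falls per list among genes called in the same direction in both sets of a target, and 7 direct partners. MIR210HG and the extra values of listed genes were chosen after their values were seen.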

Additional observations from a re-analysis of the deposited data

How the results depend on the processing

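Over the log2 changes of the 10 members, 242 values with 1 library left out kept direction and side of the threshold, 2 reversed, 4 gained and 16 lost the call. Under the other alternatives 325 kept both, 17 reversed, 32 gained and 11 lost the call. The count of 3 members called in shSHCBP1_1 was 5 under RLE scaling and 5 with DESeq2, and 2 to 3 with 1 library left out. The count of 6 in shSHCBP1_2 was 3 to 5 with 1 library left out, and 3 without its replicate 3. Under the other settings it was 4 to 8, 7 under RLE scaling and 8 with the length trend removed. With 1 library left out the counts were 9 to 10 in set 4 and 8 to 9 in set 2. Between the shSHCBP1 sets the count was 0 with any library left out and 4 with only those groups fitted, beside 9.53% of all genes. Between set 2 and set 4 it was 0 to 1 with a library left out, 1 without set 2 replicate 3 and 1 with the length trend removed, each time AGO3.

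Reversals in shSHCBP1_1 were DICER1 at -0.0202 under RLE scaling and -0.0203 with DESeq2, and, with total counts, PRKRA at 0.0519, AGO1 at 0.0294, AGO3 at 0.0291 and AGO4 at 0.0634. In shSHCBP1_2 AGO2 was -0.0776 under RLE scaling, -0.0776 with DESeq2, -0.000938 under upper-quartile scaling, and between -0.0449 and 0.0269 with 1 library left out (negative without NC replicate 2 and without shSHCBP1_2 replicate 1). With total counts PRKRA was 0.0347 and AGO4 0.00962 there. With the length trend removed AGO1, AGO2 and AGO3 were 0.12, 0.19 and 0.55 in set 4 and 0.21, 0.11 and 0.91 in set 2. The cause of these reversals was not tested.

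Scaling set the balance of calls: of the genes called in shSHCBP1_1, 47% were higher under TMM, 29.1% under RLE and 86.1% with total counts, and in shSHCBP1_2 50.3%, 34.6% and 81.7%. Total counts shifted the median of all genes to 0.15 and 0.17 there and to -0.23 in both TMEM45A sets. Under it 3 members were called higher and 0 lower in shSHCBP1_1, and 5 and 0 in shSHCBP1_2. Of all genes, 21.4% were then called higher and 3.46% lower in shSHCBP1_1, and 29.2% and 6.53% in shSHCBP1_2. RLE scaling raised the shSHCBP1_1 counts of Ran cycle genes and of tailing genes from 3 and 3 to 7 and 6. The share of all genes called there went from 19.9% to 22.9%.

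Replicate numbers did not pair the libraries, since deviations of same-numbered libraries correlated between -0.04 and 0.04. A replicate block over the 12 libraries with label numbers gave 4 members called in shSHCBP1_1, 6 in shSHCBP1_2, 9 in set 2 and 0 between the shSHCBP1 sets, adding AGO2 (-0.18, edgeR adjusted p = 0.0398) and AGO3 (-0.22, adjusted p = 0.0404). The block could not be fitted for set 4, whose columns carry no label number. A length trend on human transcripts was not run. Member counts of 282 or more limit precision little, while MIR99AHG and MIR193BHG rest on 46 and 42 counts over the NC libraries.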
